A study of Mus musculus with 6 samples.

Results

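Genes of the unfolded protein response and the integrated stress response, 10 of the 8251 genes named on the arrays, were followed in mouse liver 1 day after bile duct ligation. They were found on the arrays by name, through current symbols or older synonyms, and the list was drawn up with earlier results of these data known: the endoplasmic reticulum (ER) chaperones Hspa5, Hsp90b1, Pdia4 and Dnajb9, the ER degradation factor Herpud1, the transcription factors Xbp1, Atf4 and Ddit3, and the stress targets Trib3 and Asns. Together they had 12 of the 12488 probe sets, 2 each for Dnajb9 and Asns and 1 for each other gene, and all 12 passed the filter on low signals. Bile duct ligation (BDL) means that the common bile duct was tied and cut, which blocks bile outflow. The groups were 3 BDL mice, numbered 1, 12 and 3, and 3 sham mice, numbered 1, 2 and 3, that had the abdominal incision without ligation. All 6 were wild-type male C57BL/6J mice of 8 to 10 weeks, sampled 1 day after surgery, and each was hybridised to its own Affymetrix U74Av2 array. Whole liver was measured, so more cells of a type and more RNA per cell cannot be told apart.

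The unfolded protein response is started when unfolded proteins gather in the ER, the compartment in which secreted proteins fold. Hepatocytes secrete most plasma proteins and depend heavily on it. Its sensors are IRE1, which splices Xbp1 mRNA, ATF6, which is cut to release a transcription factor, and PERK, a kinase of the translation factor eIF2. Phosphorylation of eIF2, by PERK or by kinases that sense amino acid lack, viral RNA or heme lack, is the integrated stress response: translation in general is lowered while that of Atf4 goes up, and Atf4 in turn activates Ddit3, Trib3 and Asns.

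Promoters of 5 members are shown because their letters hold the elements named for these pathways. They are the RefSeq windows from 250 bases before to 50 bases after the gene start, build GRCm38.p6, printed 5′ to 3′ on the strand of the gene, and all 10 members matched the table. Capitals mark matches to the ER stress element ERSE (CCAAT, any 9 bases, then CCACG), to ERSE-II (ATTGG, any 1 base, then CCACG) or to the ATF4 composite element (TGATG, any 1 base, then AA), each searched on both strands. The windows are chr2:34771840-34772139, plus strand, for Hspa5, chr10:86705395-86705694, minus strand, for Hsp90b1, chr8:94386179-94386478, plus strand, for Herpud1, chr2:152344011-152344310, minus strand, for Trib3, and chr6:7693160-7693459, minus strand, for Asns.
Hspa5: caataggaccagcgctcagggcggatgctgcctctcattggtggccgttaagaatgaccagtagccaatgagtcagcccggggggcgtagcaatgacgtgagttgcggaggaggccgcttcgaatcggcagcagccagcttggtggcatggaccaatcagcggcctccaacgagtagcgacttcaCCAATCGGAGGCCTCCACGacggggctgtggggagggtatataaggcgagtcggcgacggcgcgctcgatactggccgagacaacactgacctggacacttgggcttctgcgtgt
Hsp90b1: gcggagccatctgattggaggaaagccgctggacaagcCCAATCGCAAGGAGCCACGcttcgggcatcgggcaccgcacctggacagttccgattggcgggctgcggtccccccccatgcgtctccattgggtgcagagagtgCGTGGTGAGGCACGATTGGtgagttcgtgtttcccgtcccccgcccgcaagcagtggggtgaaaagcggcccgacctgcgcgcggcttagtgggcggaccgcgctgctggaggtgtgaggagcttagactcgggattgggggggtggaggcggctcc
Herpud1: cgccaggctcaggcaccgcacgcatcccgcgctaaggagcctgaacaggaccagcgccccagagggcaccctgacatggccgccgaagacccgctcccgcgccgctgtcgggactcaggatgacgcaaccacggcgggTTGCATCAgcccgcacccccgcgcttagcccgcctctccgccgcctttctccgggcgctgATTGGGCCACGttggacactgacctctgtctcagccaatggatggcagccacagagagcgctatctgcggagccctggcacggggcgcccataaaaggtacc
Trib3: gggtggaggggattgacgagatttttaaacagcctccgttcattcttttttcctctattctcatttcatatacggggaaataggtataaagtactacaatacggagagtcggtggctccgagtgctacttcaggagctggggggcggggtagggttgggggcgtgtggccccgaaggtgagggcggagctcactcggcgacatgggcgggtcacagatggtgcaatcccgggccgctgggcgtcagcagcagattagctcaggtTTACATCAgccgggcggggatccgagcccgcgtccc
Asns: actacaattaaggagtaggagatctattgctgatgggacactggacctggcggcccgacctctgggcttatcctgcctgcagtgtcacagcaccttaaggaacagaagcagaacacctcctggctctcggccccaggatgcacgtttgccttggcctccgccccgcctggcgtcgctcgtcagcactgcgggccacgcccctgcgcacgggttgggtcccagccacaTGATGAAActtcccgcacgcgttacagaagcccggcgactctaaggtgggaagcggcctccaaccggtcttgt

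ERSE was found in 2 of the 10 member promoters, against 0.119% of 32851 promoter windows in the table. The Hspa5 match lay 65 to 47 bases upstream of the start, and Hsp90b1 had a pair, 212 to 194 bases and 107 to 89 bases upstream, the nearer one on the opposite strand. ERSE-II was found in 1, Herpud1, at 52 to 42 bases upstream, against 0.0365% of windows. The ATF4 composite element was found in 3 members, against 3.97% of windows: Herpud1 at 112 to 105 bases upstream on the opposite strand, Asns at 23 to 16 bases upstream, and Trib3 at 14 to 21 bases after the start on the opposite strand. The core ACGTG bound by XBP1, which is not capitalised because it is common, was in 5 members (Hspa5, Dnajb9, Herpud1, Ddit3 and Asns) and in 19.6% of windows. The letters of the Herpud1 core overlap its ERSE-II match. These matches describe the sequence only and were not tested for binding or enrichment. The elements are named for the pathways by which the members were chosen, so the shares are no independent support.

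The deposited signals had a 2% trimmed mean of 1501 on each array, with Pearson correlations across tested probe sets of 0.887 to 0.955 within groups and 0.856 to 0.949 between them. Sham 1 stood apart at low signals, with 12.5% of probe sets at or under the floor of 152.7 that was set for all arrays, against 24.5% to 31.3% on the other 5. It also had the lowest mean correlation with the other 5 arrays, 0.877 against 0.914 to 0.928. The number of arrays limits the precision of all values. All 10 hepatocyte markers looked up passed the filter, and their summed signal was 858500 to 1172000 in BDL mice, with BDL 12 highest, against 648200 to 1071000 in sham mice, with sham 1 lowest. Of the 9542 tested probe sets, 0 (0%) passed the limma threshold of 0.05 after Benjamini-Hochberg adjustment; 0.667 was the smallest adjusted value, and 324 were higher and 228 lower in BDL before adjustment at the same level.

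None of the 10 members passed the adjusted threshold (0 of 10). Their differences, BDL minus sham, were positive for 7 and negative for 3 (Pdia4, Herpud1 and Atf4), with a median of 0.42 on the log2 scale, against -0.01 over all 6897 tested genes. The groups did not overlap, called apart here, for 2 members, Trib3 and Hspa5, both higher in BDL, where 6.32% of all probe sets were apart in this direction and 4.32% in the other, in which there was no member. At an unadjusted p under 0.05 there was 1 member, Trib3, against 3.4% of probe sets higher and 2.39% lower. The median was 0.19 without BDL 12 and 0.22 with the replicate number as a block. It was 0.18 over 9 members without sham 1, where Ddit3 did not pass the filter. The count of members apart was 5 (of 9 then tested) without BDL 1, 4 without BDL 12 and 4 without sham 3, settings in which 11.3%, 12.5% and 12.3% of all probe sets were apart in that direction.

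**Figure D1:**
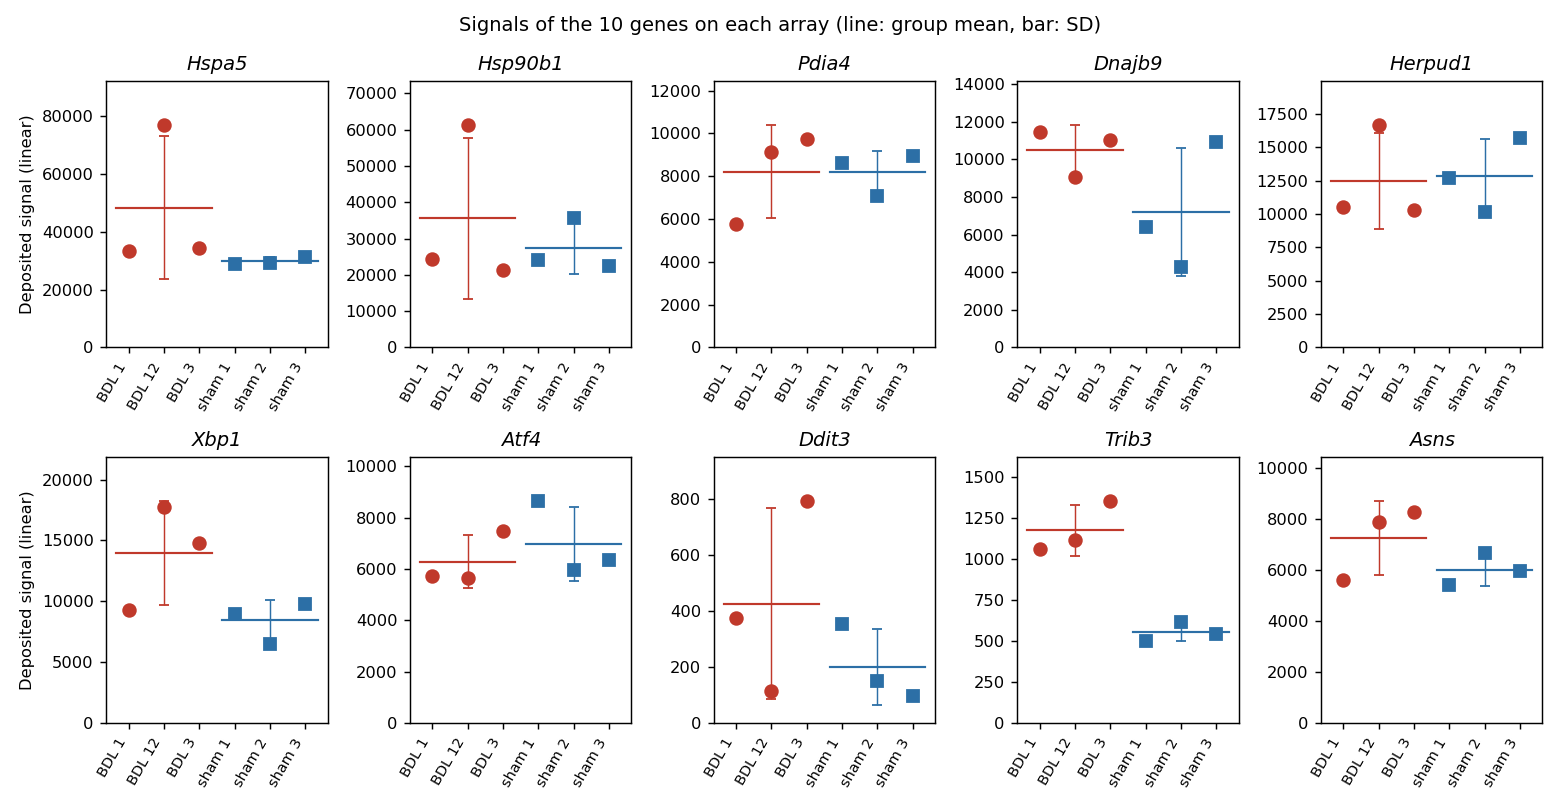
Deposited signal (linear scale, y axis from 0) of the probe set representing each of the 10 genes on the 3 BDL arrays (circles, left) and the 3 sham arrays (squares, right), with group mean (line) and SD (bar). The Trib3 signals of the BDL mice are all above those of the sham mice, and BDL 12 is far above the other 5 arrays for Hspa5 and Hsp90b1.

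Among the targets of the integrated stress response, Trib3 had the clearest separation. Trib3 encodes a pseudokinase, induced by ATF4 and CHOP, that binds the kinase AKT. Its signal was 1060, 1120 and 1354 in BDL mice 1, 12 and 3, against 504, 615 and 547 in sham mice 1, 2 and 3. Every BDL mouse was thus above every sham mouse, at 1178 ± 156 in BDL and 555 ± 56.4 in sham mice (SD, n = 3 each). The log2 difference was 1.08 (SE 0.28, 95% interval 0.45 to 1.71), a 2.12-fold higher geometric mean, with a limma unadjusted p of 0.00397 and adjusted p = 0.687. Leaving out 1 array at a time gave differences of 0.98 to 1.16, all with the groups apart.

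Asns, the asparagine synthetase gene and a standard ATF4 target, did not separate the groups. Its brighter probe set had signals of 5607, 7876 and 8282 in BDL mice 1, 12 and 3, against 5394, 6684 and 5950 in sham mice 1, 2 and 3. BDL 1 lay among the sham mice, and BDL 12 and BDL 3 above all of them. The difference was 0.26 (SE 0.29, 95% interval -0.41 to 0.93; limma adjusted p = 0.894). The other Asns probe set, of a type whose probes can match several related transcripts, had signals near the floor, 49.7 to 216 in BDL mice and 80.7 to 199 in sham mice. Its difference was -0.01 (SE 0.29).

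Ddit3, which encodes CHOP, a transcription factor of prolonged ER stress, was dim and uneven. Its signal was 374, 115 and 792 in BDL mice 1, 12 and 3, against 354, 150 and 97.9 in sham mice 1, 2 and 3. BDL 3 was the highest array, and BDL 12, sham 2 and sham 3 were under the floor. The difference was 0.82 (SE 0.60, 95% interval -0.55 to 2.19; limma adjusted p = 0.846), and without BDL 12 it was 1.43. The 3 arrays under the floor have no order among them.

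Atf4, the transcription factor at the centre of the integrated stress response, is controlled largely through translation, which arrays do not measure. Its mRNA signal was 5733, 5658 and 7460 in BDL mice 1, 12 and 3, against 8639, 5953 and 6346 in sham mice 1, 2 and 3. The groups overlapped, with sham 1 the highest. The difference was -0.14 (SE 0.30, 95% interval -0.82 to 0.54; limma adjusted p = 0.947). It was 0.020 without sham 1.

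**Figure D2:**
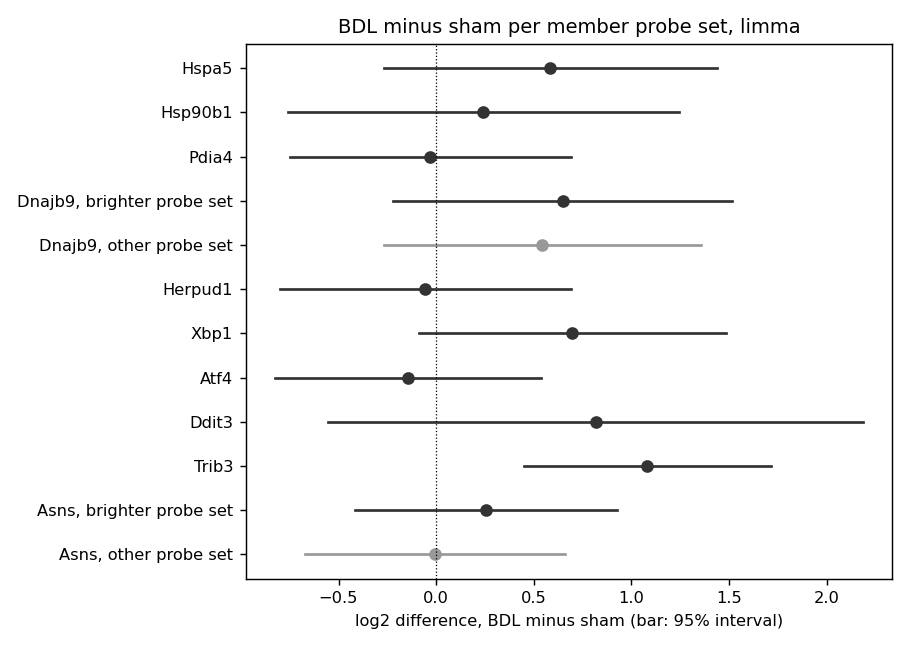
Log2 difference, BDL minus sham (x axis), with its 95% interval from limma, for each of the 12 member probe sets (rows). The Trib3 interval, 0.45 to 1.71, is the one that does not include 0, before any adjustment for the number of probe sets.

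Among the ER chaperones, Hspa5 and Hsp90b1 were set apart by a single mouse, BDL 12. Hspa5 encodes BiP, the Hsp70 chaperone of the ER lumen that also holds the stress sensors inactive. Its signal was 33511, 76844 and 34572 in BDL mice 1, 12 and 3, against 28945, 29103 and 31391 in sham mice 1, 2 and 3. All BDL signals were above all sham signals, and BDL 12 was 2.22 times the next highest array. The means were 48310 ± 24700 in BDL and 29810 ± 1370 in sham mice (SD, n = 3 each). The log2 difference was 0.58 (SE 0.37, 95% interval -0.27 to 1.44; limma adjusted p = 0.832), and without BDL 12 it was 0.19, with the groups still apart. After quantile normalization the Hspa5 groups overlapped.

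Hsp90b1 encodes GRP94, the Hsp90 chaperone of the ER lumen. Its signal was 24242, 61179 and 21423 in BDL mice 1, 12 and 3, against 24160, 35567 and 22433 in sham mice 1, 2 and 3. BDL 12 was again the highest array, 1.72 times the next, which was sham 2, and the other 4 arrays lay close together. The difference was 0.24 (SE 0.44, 95% interval -0.76 to 1.24; limma adjusted p = 0.937), and it was -0.23 without BDL 12.

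Pdia4, a disulfide isomerase of the ER, did not share this pattern. Its signal was 5749, 9142 and 9758 in BDL mice 1, 12 and 3, against 8608, 7097 and 8925 in sham mice 1, 2 and 3. BDL 1 was the lowest array and BDL 3 the highest. The difference was -0.03 (SE 0.32, 95% interval -0.75 to 0.69; limma adjusted p = 0.992).

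Dnajb9, the J-domain partner ERdj4 that returns BiP to the sensor IRE1, was higher in BDL on both of its probe sets, with overlapping groups. The brighter one had signals of 11457, 9037 and 11040 in BDL mice 1, 12 and 3, against 6389, 4256 and 10924 in sham mice 1, 2 and 3. Sham 3 lay among the BDL mice, and sham 1 and sham 2 below all of them. The difference was 0.65 (SE 0.38, 95% interval -0.22 to 1.52; limma adjusted p = 0.832), and it was 1.00 without sham 3 and 0.32 without sham 2. The other probe set gave 0.54 (SE 0.36), and its signals were 2976 to 4669 in BDL mice and 1911 to 3874 in sham mice.

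Herpud1, a membrane protein of ER-associated degradation, had overlapping groups. Its signal was 10529, 16633 and 10284 in BDL mice 1, 12 and 3, against 12678, 10161 and 15693 in sham mice 1, 2 and 3. BDL 12 was the highest array and sham 3 came next. The difference was -0.06 (SE 0.33, 95% interval -0.80 to 0.69; limma adjusted p = 0.985).

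Xbp1 encodes the transcription factor made active by IRE1 splicing, and its total mRNA is itself a target of the response. Its signal was 9321, 17751 and 14791 in BDL mice 1, 12 and 3, against 8957, 6533 and 9798 in sham mice 1, 2 and 3. BDL 12 and BDL 3 were above every sham mouse, and BDL 1 lay below sham 3. The means were 13950 ± 4280 in BDL and 8429 ± 1700 in sham mice (SD, n = 3 each). The difference was 0.70 (SE 0.34, 95% interval -0.09 to 1.48; limma adjusted p = 0.832), a 1.62-fold higher geometric mean in BDL. It was 0.50 without BDL 12 and 0.96 without BDL 1. The signal gives no ratio of spliced to unspliced mRNA.

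The members varied unevenly across the 6 mice. Of 45 pairs of members, 33 had a positive Pearson correlation of log2 signals, with a median of 0.259, and 0 passed after Benjamini-Hochberg adjustment over the 45. With 6 arrays the smallest possible exact permutation p is 0.00278, so a single pair could not have passed and this 0 says little. The strongest by p was Hspa5 with Xbp1, with Pearson's r = 0.794 (exact permutation p = 0.00833, adjusted 0.375) and Spearman's rho = 0.886 (exact permutation p = 0.0333, adjusted 0.75). It was 0.889 without BDL 12 and sham 1, the arrays farthest from the Hspa5 median. Hspa5 with Hsp90b1 had r = 0.825 (exact permutation p = 0.151, adjusted 0.76) and rho = 0.143 (exact permutation p = 0.803, adjusted 0.985), and r = -0.849 without the same 2 arrays, so this relation rested on them. The 6 arrays span both groups, so a difference between the groups can add to these correlations. For deviations from the group means, r was 0.654 for Hspa5 with Xbp1 and 0.883 for Hspa5 with Hsp90b1. By array, 8 of 10 members were above their own mean in BDL 12, 7 in BDL 3 and 3 in BDL 1. In sham mice 1, 2 and 3 there were 4, 2 and 3. BDL 1 was therefore like the sham mice in this count.

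Other ER chaperones and folding enzymes were close to all genes in their median. Of 20 tested of 24 listed, 12 had a positive difference, with a median of 0.08 over the list against -0.01 over all tested genes; 0 passed the adjusted threshold, 1 was lower in BDL before adjustment and 0 were higher, and 1 was apart. Over all probe sets, 2.39% were lower and 3.4% higher at an unadjusted p under 0.05, and 6.32% were apart and higher. The list median ran from -0.09 without sham 2 to 0.25 without sham 3. The lower one was Uggt1, which marks misfolded glycoproteins with glucose for another folding round, at -0.89 (SE 0.37; limma adjusted p = 0.832) with overlapping groups. P4hb, protein disulfide isomerase, was the one apart, with a difference of 0.39 (SE 0.29): the brighter probe set ranged over 8886 to 12352 in BDL mice and 6949 to 8731 in sham mice. Its other probe set went the opposite way, at -0.85 (SE 0.37), with 438 to 551 in BDL mice and 676 to 1527 in sham mice, so no direction is given for P4hb.

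Manf, a small protein of the ER that is induced by unfolded proteins, had signals of 7667, 22669 and 8612 in BDL mice 1, 12 and 3, against 7026, 7203 and 8993 in sham mice 1, 2 and 3. Creld2, another ER stress gene, was chosen after its values were seen: its signals were 1942, 7900 and 2177 in BDL mice 1, 12 and 3, against 2170, 2385 and 2107 in sham mice 1, 2 and 3. BDL 12 was 2.52 times the next array for Manf and 3.31 times for Creld2, as it was for Hspa5 and Hsp90b1 by smaller factors. Over all tested genes, BDL 12 was at least 1.5 times every other array for 153 of 6897, 2.22%. Sham 1 was so for more genes, 812 or 11.8%. Among the members this excess of BDL 12 held for 2 of 10, and among the listed chaperones for 2 of 20. Of the other lists described further on, it held for 2 of the 14 amino acid synthesis and import genes, and for 0 of the 7 sensors and kinases, 12 degradation genes, 21 translocation genes, 12 ATF4 and CHOP targets and 19 aminoacyl-tRNA synthetases.

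Markers of other cell types that the tissue could hold were read beside these. The 8 tested exocrine pancreas markers, of 19 listed, had a summed signal of 8846 to 12910 in BDL mice, against 9173 to 21360 in sham mice, with BDL 12 at 12910 and sham 1 highest. The 9 tested plasma and B cell markers, of 13 listed, summed to 5562 to 9099 in BDL, where BDL 12 was highest, and to 4505 to 9557 in sham mice. Of these 9, 3 had a positive difference, Sdc1 highest at 0.90 (SE 0.55), and the median was -0.52, or -0.23 without sham 1. Without sham 3 the median was -0.81, and 5 of the 9 were apart and lower, where 1166 of 6814 tested genes were. Sdc1 alone made up 5149 of the 9099 in BDL 12, and was at 1651 in BDL 1 and 2233 in BDL 3. No deposited signal is 0, and of the pancreas markers Rnase1 was under the floor on all 6 arrays. Macrophage and Kupffer cell markers, 10 tested of 14, summed to 10270 to 16280 in BDL, with BDL 12 lowest, and to 7207 to 12700 in sham mice, and cholangiocyte markers, 6 tested of 12, to 3591 to 4296 in BDL mice, against 2975 to 4026 in sham mice. Of the macrophage markers 8 of 10 had a positive difference, with a median of 0.63. It was 0.28 without sham 3, 0.39 without BDL 3 and 0.72 without BDL 12. Without BDL 12, 6 of the 10 were apart and higher, where 12.7% of all tested genes were. With all 6 arrays, those with the smallest p were C1qa by 0.99 (SE 0.47) and Cd68 by 0.89 (SE 0.44). Next came Clec4f by 0.85 (SE 0.54) and Lyz2 by 1.12 (SE 0.73), and all of these had overlapping groups. Of the cholangiocyte markers 4 of 6 were positive, with a median of 0.26. It was -0.05 without BDL 1, 0.01 without BDL 12, 0.11 without BDL 3 and 0.00 without sham 1, over 4, 5, 4 and 5 tested markers. Among the 6, Aqp1 differed by 1.10 (SE 0.73) and Slc4a2 by -0.33 (SE 0.31), both with overlap. Anxa3 was at 381 to 404 in BDL mice and under the floor in all 3 sham mice. Anxa3, at 1.36 the largest difference of the 6, passed the filter only through the BDL arrays. It was therefore not tested when any BDL array was left out. Of the hepatocyte markers 8 of 10 were positive, with a median of 0.19, or 0.00 without sham 1, 0.09 without BDL 12 and -0.02 after quantile normalization. With all 6 arrays, Ttr was the one hepatocyte marker apart, lower in BDL at -1.25 (SE 0.36). Ms4a1 was the one B cell marker apart in that setting, also lower, at -0.77 (SE 0.27). Over all probe sets 4.32% were apart and lower. Of the pancreas markers 1 of 8 was positive, with a median of -0.39, or 0.09 without sham 1 and -0.01 without BDL 3. The part of these markers in the members' differences was not tested.

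**Figure D3:**
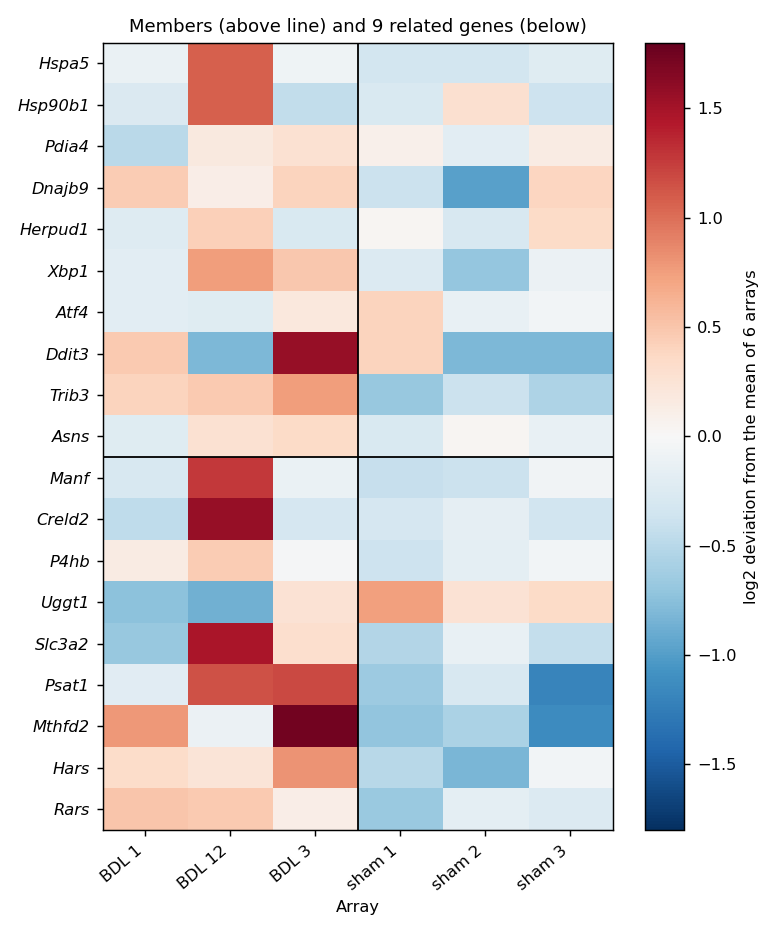
Log2 deviation of each gene (rows) from its mean over the 6 arrays (columns, BDL left, sham right) for the 10 members above the line and 9 related genes named in the text below it; red is above and blue below the mean. The BDL 12 column is above the mean for 8 of the 10 members. Its signal is at least 1.5 times every other array for Hspa5, Hsp90b1, Manf, Creld2 and Slc3a2. All BDL arrays are above all sham arrays for Trib3, Hspa5, P4hb (brighter probe set), Psat1, Mthfd2, Hars and Rars. The 9 related genes were picked by hand with their values known and do not stand for their lists. Shmt2, which was apart and lower in BDL, is not among them.

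The sensors and eIF2 kinases, 7 tested of 11, had a median of -0.24 with 2 positive and 0 at an unadjusted p under 0.05. The median was -0.07 without BDL 12, -0.11 without sham 3, -0.42 without sham 2 and 0.01 with array weights. Eif2ak2, the kinase PKR that senses viral RNA, differed by -0.48 (SE 0.32). ER-associated degradation genes, 12 tested of 19, had a median of -0.11 with 4 positive and 0 at that level, and the median ran from -0.18 without sham 2 to -0.03 without BDL 12. Rad23b, a proteasome shuttle, differed by -0.49 (SE 0.30). Genes of ER translocation and secretory entry, 21 tested of 25, had a median of 0.02 with 11 positive and 0 at that level, and the median ran from -0.01 without BDL 3 to 0.15 without sham 3. The 2 that were apart, 9.52% against 6.32% of all tested genes and so near that background, were Srpr, a subunit of the receptor that docks ribosomes on the ER, at 0.61 (SE 0.34), and Rpn1, a subunit of the glycosylating enzyme, at 0.43 (SE 0.27). Groups overlapped for Eif2ak2 and for the brighter probe set of Rad23b, whose other probe set was apart and lower in BDL, at -0.39 (SE 0.28).

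The genes listed as other targets of ATF4 and CHOP had overlapping groups with all 6 arrays. This list does not hold every ATF4 target, since several of the aminoacyl-tRNA synthetases described further on are targets as well. Of 12 tested of 21 listed, 5 had a positive difference, the median was -0.13, 0 were at an unadjusted p under 0.05 in either direction and 0 were apart. Without sham 3 the median was -0.02, with 3 apart and lower and 2 lower at that level. Of all 6814 genes tested in that setting, 1166 were apart and lower and 506 were lower at that level. The list median was -0.05 without BDL 1 and -0.25 without BDL 3. Without sham 2 there were 2 apart and higher and 1 apart and lower. There, 13.2% of all tested genes were apart and higher, and 564 of 6708 were apart and lower. With all 6 arrays the differences of the listed genes ran from -0.62 to 0.63.

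Amino acid synthesis and import genes, 14 tested of 19, contained larger differences in both directions around a median of 0.02. This median ran from -0.21 without sham 2 to 0.31 without sham 1, each over the 12 genes then tested. Mthfd2, a mitochondrial enzyme of one-carbon metabolism, had signals of 1370, 744 and 2662 in BDL mice 1, 12 and 3, against 490, 537 and 364 in sham mice 1, 2 and 3, and was higher by 1.61 (SE 0.46; limma adjusted p = 0.827). Psat1, a transaminase of serine synthesis, had signals of 474, 1204 and 1243 in BDL mice 1, 12 and 3, against 345, 447 and 239 in sham mice 1, 2 and 3, and was higher by 1.42 (SE 0.44; limma adjusted p = 0.832). Both genes had all BDL mice above all sham mice, and they were the 2 at an unadjusted p under 0.05. Over all probe sets, 3.4% were higher in BDL at that level and 6.32% were apart and higher. The dimmer probe set of Mthfd2 differed by 0.59 (SE 0.45) with overlapping groups. Shmt2, the mitochondrial serine hydroxymethyltransferase, was apart in the other direction, at -0.76 (SE 0.35), as were 4.32% of all probe sets. Slc3a2, the heavy chain of amino acid exchangers, had signals of 3484, 15462 and 6877 in BDL mice 1, 12 and 3, against 3869, 5078 and 4129 in sham mice 1, 2 and 3, with BDL 1 below all sham mice.

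The aminoacyl-tRNA synthetases, which charge tRNAs and of which several are ATF4 targets, had a median of 0.37 over 19 tested of 20. This was the highest of the 7 related lists with all 6 arrays. Without sham 1 it was 0.26 over the 18 genes then tested, below the 0.31 of the amino acid list over 12. Of the 19, 13 were positive, 2 were higher and 0 lower before adjustment at the 0.05 level, 6 were apart and higher in BDL and 0 apart and lower, and 0 passed the adjusted threshold. Over all tested genes 6.32% were apart and higher. Differences over the list ran from -0.34 to 1.41, and ATF4 targets were not set against its other genes. Hars had signals of 670, 628 and 934 in BDL mice 1, 12 and 3, against 378, 301 and 518 in sham mice 1, 2 and 3, and was higher by 0.91 (SE 0.33; limma adjusted p = 0.832). Rars had signals of 3294, 3227 and 2531 in BDL mice 1, 12 and 3, against 1457, 2050 and 1958 in sham mice 1, 2 and 3, and was higher by 0.73 (SE 0.29; limma adjusted p = 0.832). Farsb was apart as well, at 0.62 (SE 0.30), whereas Qars, at 0.93 (SE 0.45), overlapped. The list median was 0.15 without BDL 3 and 0.17 without BDL 1, each over the 18 genes then tested. The count apart was 10 without BDL 12 and 9 without sham 3, where 12.7% and 12.5% of all tested genes were apart and higher.

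**Figure D4:**
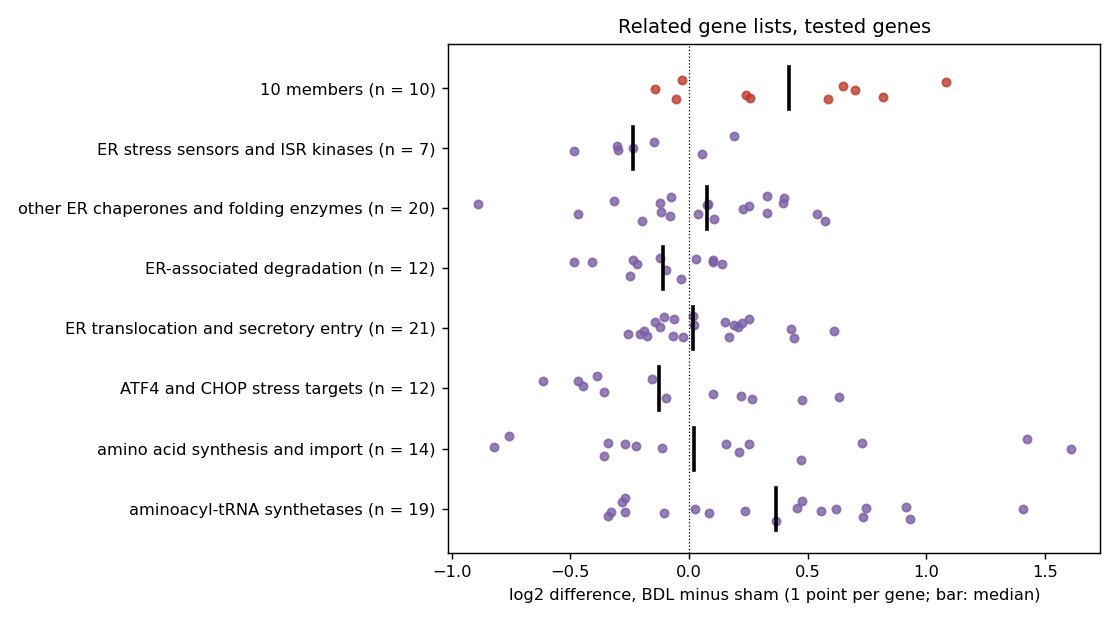
Log2 difference, BDL minus sham (x axis), of each tested gene (points) in the 10 members (top row) and in 7 related lists (rows below), with the median of each list (bar). The medians of the members, 0.42, and of the aminoacyl-tRNA synthetases, 0.37, are to the right of the others, which run from -0.24 to 0.08.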

How the data were processed

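Liver RNA of 3 BDL and 3 sham mice was measured on Affymetrix U74Av2 arrays, 20 µg cRNA and 1 mouse each, per the design text of the series. Per that text and the labels, the authors analysed the chips with Affymetrix's MicroArray Suite and GeneChip software; how they scaled the chips or subtracted background is not given in the sources used here. Deposited values are 1 linear intensity per probe set and array. They were used as scaled, since the trimmed means of the arrays differed by 0.026%. Signals under the 25th percentile of all values, 152.7, were raised to it and log2 was taken, which understates differences of dim genes. Control probe sets (66) were left out, and 9542 probe sets above the floor on at least 3 of 6 arrays were tested with limma 3.58.1 (R 4.3.3; lmFit and eBayes, no covariates, 4 residual and 4.67 prior degrees of freedom), with Benjamini-Hochberg adjustment over all of them. SE is limma's moderated standard error. The platform's annotation gave 10833 probe sets 1 gene each, with symbols brought up to date through RefSeq (GRCm38.p6). Where a gene had several probe sets, the brightest by mean log2 signal stood for it.

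The members and the 12 lists were chosen with earlier results of these data known. All members are named, and of each list up to 4 tested genes with the smallest unadjusted p; those above 0.2 could be left out, and any other name is marked as chosen after its values were seen. Lists are described by counts and medians with no set test. The fit was tested on simulated data. The alternatives were quantile normalization, floors at the 10th and 40th percentiles, an added constant of 100, testing all probe sets, a stricter filter (50th percentile), array weights, robust variances, a variance trend, leaving out each array, the replicate number as a block, and the mean of a gene's probe sets. The labels and files name no batch.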

Additional observations from a re-analysis of the deposited data

How the results depend on the processing

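With 3 arrays a group and no probe set past the adjusted threshold, single differences are values with errors. No member and no gene of the 7 related lists passed the adjusted threshold under any of the 16 alternatives that refit all probe sets, and over all probe sets 0 passed in each except without the filter, which gave 3 (Anxa3, and Myc and Ate1, which were named after their values were seen, each with all sham arrays at the floor). Members at an unadjusted p under 0.05 numbered 2 with the variance trend, 4 with array weights and 1 to 2 leaving out 1 array; Trib3 was always one. The median over members was 0.18 (without sham 1) to 0.52 (without BDL 3). Ddit3 did not pass the filter in either of these settings. Both are thus medians of 9 members and not of the same genes as the 0.42 with all arrays. Leaving out 1 array turned the direction of Pdia4 (-0.17 to 0.21), Herpud1 (-0.28 to 0.10), Hsp90b1 (-0.23 to 0.52), Atf4 (-0.27 to 0.020) and the dim Asns probe set (-0.14 to 0.11). Array weights turned Hsp90b1 (-0.18), Pdia4 (0.078), Atf4 (0.030) and dim Asns (0.015), and quantile normalization dim Asns (0.18). The causes were not tested.

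The groups share the numbers 1 and 3. With the replicate number as a block, BDL 12 and sham 2 have no partner, so the differences come from the mice numbered 1 and 3; the median over members was 0.22, Hspa5 0.18, Xbp1 0.33 and Trib3 1.19, with Hsp90b1 (-0.031) and dim Asns (0.18) turned; it turned no other member and changed no call. Deviations from group means correlated at 0.209 for the mice numbered 1 and 0.246 for those numbered 3, and at 0.289 for BDL 12 and sham 2, which do not share a number; all other pairs were below 0. The labels do not say what a number marks. Before adjustment at the 0.05 level, 324 probe sets were higher and 228 lower in BDL, against 569 and 454 with array weights, 284 and 329 with the floor at the 10th percentile, 287 and 148 with that at the 40th, 253 and 109 with the stricter filter, 380 and 772 without sham 3, 314 and 105 without sham 1 and 181 and 119 without BDL 3; leaving out 1 array gave 181 to 382 higher.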

Other observations

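Since BDL 12 held the highest Hspa5, Hsp90b1, Manf and Creld2 signals, the other genes that stood highest there were listed after the values were seen, by the ratio to the next array. Over 1163 tested genes with their highest signal in BDL 12, Creld2 ranked 7, Manf 12, Hspa5 27 and Hsp90b1 79. The first 12 were, in order, Slc34a2 (6.73 times the next array), Plin4, Mrap, Snhg5, Gnl2, Pdk4, Creld2, Npnt, Ier3, Lepr, Pik3r1 and Manf. Pdk4, Lepr, Plin4 and Mrap are described below. They were picked from these by hand and do not stand for the rest. Pdk4, the kinase that shuts down pyruvate oxidation in fasting, had signals of 1907, 52956 and 2677 in BDL mice 1, 12 and 3, against 942, 15823 and 1110 in sham mice 1, 2 and 3. Lepr, the leptin receptor, had 385, 7656 and 811 in BDL mice 1, 12 and 3, against 118, 2926 and 619 in sham mice 1, 2 and 3. Plin4, a lipid droplet protein, had 82.2, 2780 and 384 in BDL mice 1, 12 and 3, against 168, 512 and 275 in sham mice 1, 2 and 3. For these 3 genes sham 2 was the highest sham array, as it was for Hsp90b1 and Creld2, while for Hspa5 and Manf sham 3 was. Mrap, an accessory protein of melanocortin receptors, had 5312, 26956 and 5219 in BDL mice 1, 12 and 3, against 4000, 4974 and 3301 in sham mice 1, 2 and 3. Feeding before sampling is not given in the sources used here, and no relation of these genes to the ER chaperones was tested.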
